A study of Mus musculus with 18 samples.

Results

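Immediate early genes are transcribed within minutes of a stimulus from factors that are already present in the cell, such as SRF and CREB, and their mRNAs are short-lived. In cortex they are widely read as a trace of recent neuronal activity, and astrocytes also induce many of them when stimulated. The 10 genes followed here (Fos, Fosb, Junb, Egr1, Arc, Npas4, Nr4a1, Ier2, Dusp1 and Btg2) were chosen by name from the 21923 gene rows of the deposited table, and all 10 were present. They were described in RNA bound to the tagged ribosomes of cortical astrocytes, from mice with floxed GLUT1 alleles and inducible astrocyte Cre and from Cre-only controls.

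Translating ribosome affinity purification (TRAP) precipitates EGFP-tagged ribosomal protein L10a together with the mRNA on the ribosome, and the precipitate (IP) is enriched for mRNA of the cells that carry the tag. The cKO mice were labelled GLUT1 flox/flox;GLAC +/wt and the Ctrl mice GLAC +/wt, all of them male C57BL/6 animals taken from the home cage. GLAC is not spelled out in the labels. The methods describe tamoxifen-inducible Cre under the astrocyte promoter GLAST in both groups, so that the groups differed by the floxed Slc2a1 alleles and not by Cre. Both also received a virus in which the hGFAP promoter drives Cre-dependent EGFP-L10a. Tamoxifen was given on 5 days at 8 to 10 weeks of age, 7 days after the virus, and RNA was collected 60 days later. The comparison holds 3 Ctrl IP and 4 cKO IP libraries, each named by its AstroTRAP number. The labels list 5 Ctrl IP samples, and the other 2, like all input samples, were not analysed here because their columns could not be tied to a label. IP to input ratios of these genes are therefore not given.

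Libraries held between 12570309 and 40734343 estimated counts, with the deepest and the shallowest in different genotypes. Values are CPM (counts scaled to a common library size) after TMM scaling, which are not adjusted for transcript length, so levels are compared between libraries and never between genes. All 10 genes passed the low-count filter, with 13296 of 21923 genes tested. Slc2a1, the targeted gene, lay between 56.4 and 61.9 CPM in all 7 libraries at the level of the whole gene (log2 fold change -0.013, standard error 0.12). These whole-gene values showed no reduction in cKO, so they give no check of the labels. The study reported fewer reads over a run of Slc2a1 exons, and less Slc2a1 by qPCR, in cKO IP samples. Exon-level reads were not analysed here, and the reason for the difference was not tested. Astrocyte markers were abundant in every library, with Gja1 at 1042 to 1233 CPM, but neuronal mRNA was also present, with Snap25, a synaptic vesicle fusion protein, at 1572 to 2255 CPM. In bulk RNA of this kind, fewer cells of a type and less RNA per cell cannot be told apart.

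Fos, Fosb and Junb encode subunits of the AP-1 transcription factor. Fos had 47.0, 101.1 and 43.6 CPM in the Ctrl libraries AstroTRAP_11, AstroTRAP_15 and AstroTRAP_19, and 100.4, 161, 35.3 and 64.3 CPM in the cKO libraries AstroTRAP_1, AstroTRAP_5, AstroTRAP_9 and AstroTRAP_17. The cKO libraries thus held both the highest and the lowest value, and the Ctrl range lay inside theirs. In the same order of libraries, which is kept below, Junb had 33.3, 66.3 and 41.9 CPM in Ctrl and 49.98, 79.6, 27.4 and 49.2 CPM in cKO. It ran in nearly the same order as Fos, high in AstroTRAP_5 and AstroTRAP_15 and lowest in AstroTRAP_9. Fosb, the scarcest of these subunits in counts, with 36 to 190 per library, had 1.32, 2.44 and 3.32 CPM in Ctrl and 2.53, 7.36, 1.79 and 3.33 CPM in cKO. Its value in AstroTRAP_5 stood above all others, and the remaining cKO libraries lay at or near the Ctrl range.

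The genotypes did not separate for any AP-1 subunit. Fos was at 63.9 ± 32.2 CPM (SD, n = 3) in Ctrl and 90.2 ± 54.1 CPM (SD, n = 4) in cKO, a log2 fold change of 0.50 with a standard error of 0.45 (95% confidence interval -0.50 to 1.49, with an adjusted p of 0.9996 in the quasi-likelihood fit of edgeR). The log2 fold change of Fosb was 0.68 (standard error 0.61, interval -0.67 to 2.03). That of Junb was 0.13 (standard error 0.33, interval -0.59 to 0.85), and it became -0.16 without AstroTRAP_5 and -0.072 without AstroTRAP_11.

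**Figure D1:**
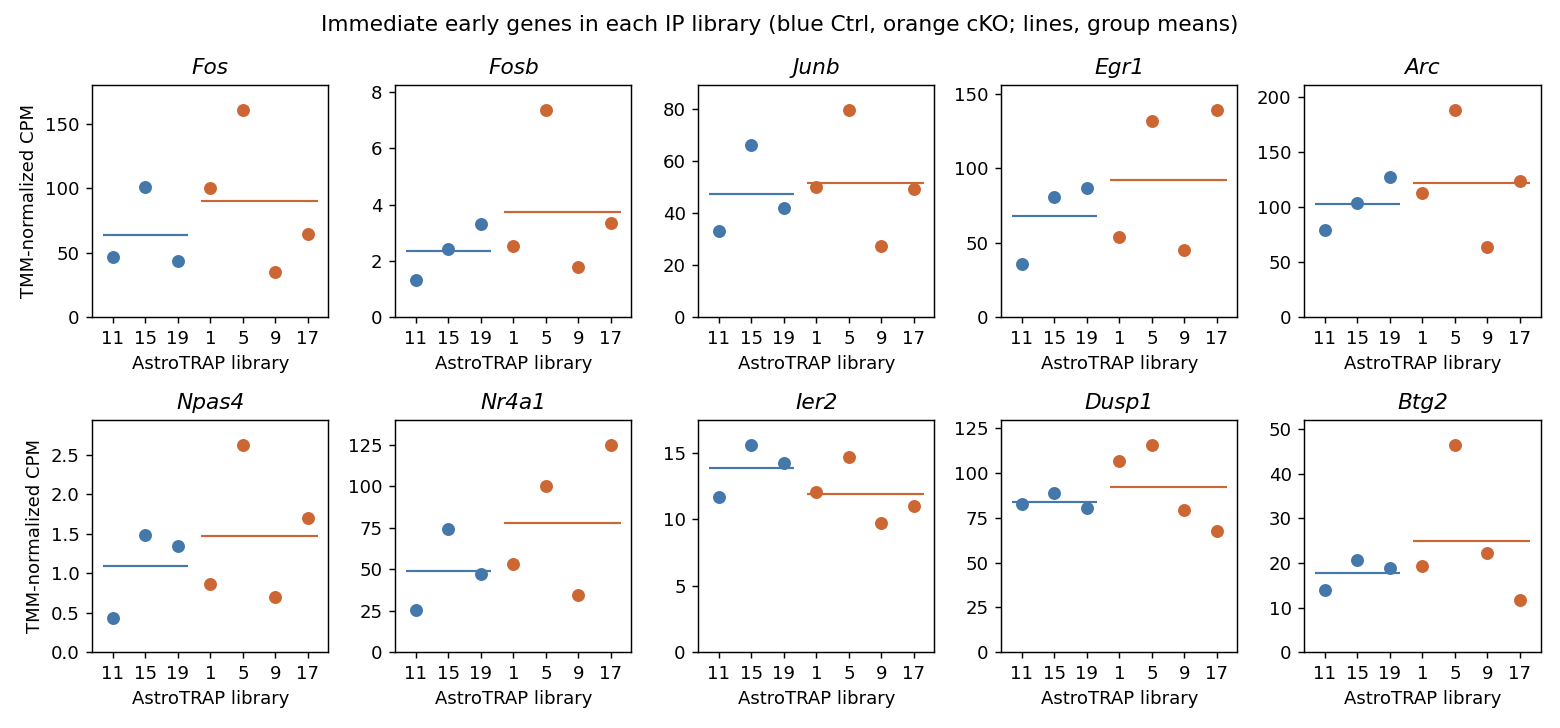
TMM-normalized CPM (y axis, from 0) of the 10 immediate early genes in the 3 Ctrl (blue) and 4 cKO (orange) IP libraries, with group means as lines. AstroTRAP_5 holds the highest value for 7 of the 10 genes, and no gene separates the genotypes.

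Egr1, Npas4 and Nr4a1 encode other inducible transcription factors: a zinc finger protein, a neuronal bHLH-PAS factor and an orphan nuclear receptor. Egr1 had 36.1, 80.6 and 86.5 CPM in Ctrl and 54.1, 132, 44.9 and 139 CPM in cKO. Its highest libraries were AstroTRAP_17 and AstroTRAP_5, but the other cKO libraries lay below 2 of the 3 Ctrl libraries. Nr4a1 had 25.6, 74.5 and 46.9 CPM in Ctrl and 53.1, 99.96, 34.4 and 125 CPM in cKO, with the same libraries at the top. Npas4, an activity-dependent factor known mainly from neurons, had 0.432, 1.49 and 1.35 CPM in Ctrl and 0.864, 2.63, 0.696 and 1.70 CPM in cKO. These levels rest on 14 to 68 counts per library. The 14 counts in AstroTRAP_1 allow 7.65 to 23.5 and the 68 in AstroTRAP_5 allow 52.8 to 86.2 (exact 95% Poisson intervals, which cover counting error only).

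Nr4a1 had a log2 fold change of 0.67 between cKO and Ctrl (standard error 0.44, interval -0.29 to 1.64) and an unadjusted p of 0.153 in edgeR's quasi-likelihood test, the lowest of the 10 genes. Egr1 had one of 0.45 (standard error 0.42, interval -0.48 to 1.38). The change of Npas4, 0.44 with a standard error of 0.81, had the widest interval, -1.35 to 2.23, and was -0.0034 without AstroTRAP_5.

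The remaining genes encode an effector, feedback regulators and a nuclear protein. Arc, which regulates glutamate receptor uptake at synapses, had 78.8, 104 and 127 CPM in Ctrl and 113, 188, 63.7 and 124 CPM in cKO, which gave a log2 fold change of 0.24 (SE 0.30, interval -0.42 to 0.90), and -0.044 without AstroTRAP_5. Dusp1, a phosphatase that inactivates MAP kinases, had 82.6, 88.8 and 80.7 CPM in Ctrl and 107, 116, 79.3 and 67.9 CPM in cKO. The Ctrl libraries were close together here, at 84.0 ± 4.27 CPM (SD, n = 3), and lay inside the wider cKO range, at 92.6 ± 22.7 CPM (SD, n = 4). The log2 fold change of Dusp1 was 0.14 (SE 0.18, interval -0.26 to 0.54). Btg2, an antiproliferative protein that binds the CCR4-NOT deadenylase, had 14.0, 20.7 and 18.9 CPM in Ctrl and 19.4, 46.5, 22.2 and 11.8 CPM in cKO. AstroTRAP_5 was more than 2 times as high as any other library, and without it the log2 fold change of Btg2 went from 0.49 (standard error 0.39) to -0.0010. Ier2, a nuclear protein of the early growth response, had 11.7, 15.6 and 14.3 CPM in Ctrl and 12.1, 14.7, 9.74 and 11.04 CPM in cKO. It was the 1 gene with a lower mean in cKO, with a log2 fold change of -0.22 (standard error 0.23, interval -0.73 to 0.30), and its groups overlapped.

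Taking the 10 genes as a list, 0 passed an adjusted p of 0.05 in edgeR's quasi-likelihood test, where 0.0451% of all tested genes did. At an unadjusted p under 0.05 the counts were again 0 of 10, against 2.58% of all tested genes. Neither edgeR's exact test nor DESeq2 called a member (0 of 10 each, and 0 at an unadjusted p under 0.05), where they called 0.135% and 0.158% of the genes. The genotypes overlapped for 10 of 10 genes, and 5.11% of the tested genes did not overlap. The lowest exact two-sided permutation p on log2 CPM was 0.286, in a design whose smallest possible p is 0.0571. Log2 fold changes were above 0 for 9 of the 10, with a median of 0.45, beside 6955 of 13296 genes above 0 and a median of 0.012 over all tested genes. These signs are not 10 separate observations, since the same libraries carry them: without AstroTRAP_5, which ranked among the top 2 for 10 of 10 genes, 5 of the 10 were above 0 and the median was 0.0054. The intervals of Junb, Arc, Ier2 and Dusp1 lay within 1 of 0 on the log2 scale, and those of the other 6 reached beyond it, so that a log2 fold change of 1 lay inside them.

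**Figure D2:**
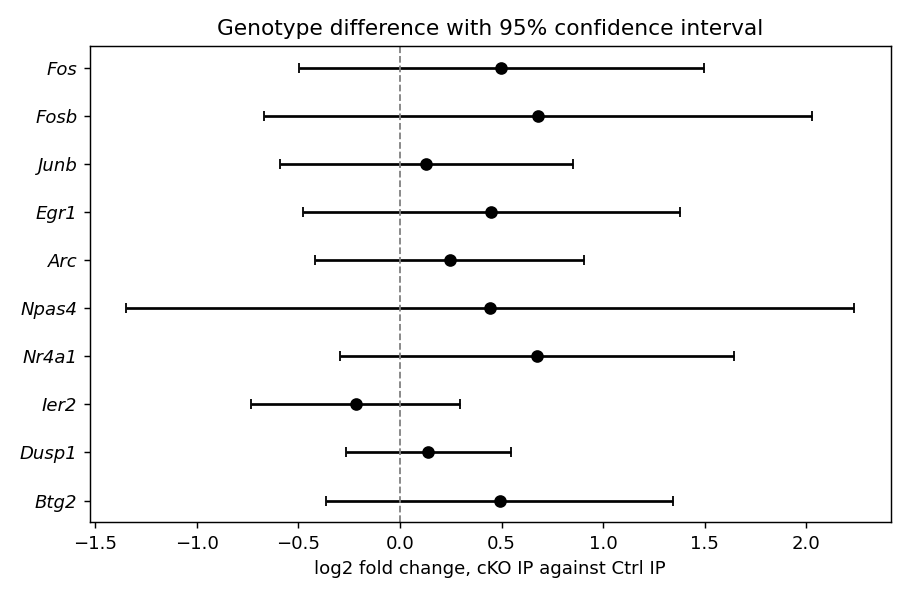
Log2 fold change of each immediate early gene, cKO IP against Ctrl IP (x axis), from edgeR's quasi-likelihood fit of 3 Ctrl and 4 cKO libraries. Points are estimates and bars are 95% confidence intervals, all of which include 0, from Dusp1 among the narrowest to Npas4, the widest.

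The SD of log2 CPM within genotype, pooled over both genotypes, was larger than the size of the fitted log2 fold change for 10 of the 10 genes. The share of all tested genes for which this holds was not counted. Within genotype, the SD of log2 CPM was 0.84 for Fos, 0.85 for Npas4, 0.82 for Nr4a1, 0.79 for Egr1 and 0.77 for Fosb. The median over the 10 genes was 0.72, beside a median of 0.33 over all tested genes, and 8 of the 10 lay above that median. Across all 7 libraries the highest CPM was 4.55 times the lowest for Fos, 4.90 times for Nr4a1 and 3.95 times for Btg2. The lowest SDs of the 10 were those of Dusp1 and Ier2, at 0.28 and 0.24, with ratios of 1.71 and 1.61. The SD of a gene also depends on its level. The biological coefficient of variation that edgeR fitted was 2.31 times the trend at the same abundance for Fos, 2.18 times for Nr4a1 and 2.17 times for Egr1. For the scarce Npas4 and Fosb it was 0.867 and 0.971 times the trend, for Ier2 0.806 times and for Dusp1 1.06 times. In this count 7 of the 10 genes lay above the trend, Dusp1 only just. How many of all tested genes lay above it was not counted. Jun, a partner of Fos in AP-1 that is not among the 10, had an SD of 0.13, with 82.2 to 105 CPM over the 7 libraries and a log2 fold change of -0.014 (standard error 0.13).

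**Figure D3:**
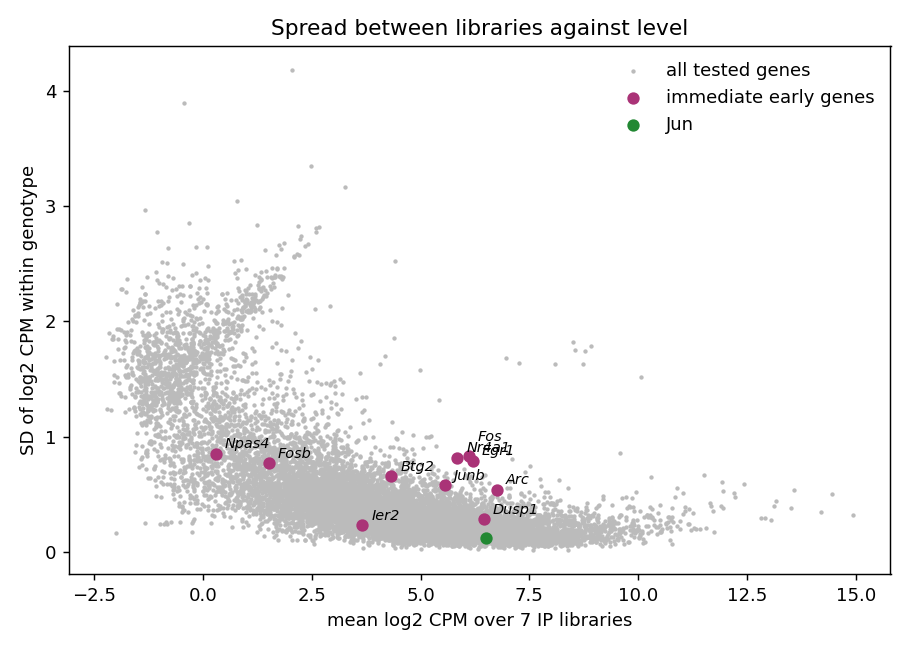
SD of log2 CPM within genotype (y axis) against mean log2 CPM (x axis) for the 13296 tested genes (grey), the 10 immediate early genes (purple) and Jun (green), over 7 IP libraries. Fos, Egr1, Nr4a1 and Arc sit above most genes of their level, while Ier2 and Jun sit below the middle of theirs.

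The members varied together. AstroTRAP_5 had the highest level of 7 of the 10 genes, and AstroTRAP_9 and AstroTRAP_11 were lowest for 4 each, although they belong to different genotypes. The summed CPM of the 10 genes was 331, 555 and 464 in Ctrl and 512, 847, 319 and 598 in cKO. After each value was centred on its genotype mean, the median Pearson r over the 45 pairs of genes was 0.73, beside -0.00029 over all pairs of tested genes (quartiles -0.42 and 0.43). These are descriptions over 7 libraries with 5 residual degrees of freedom, and the points share library, depth and cell make-up. Closest were Egr1 with Npas4 (r = 0.95), Fos with Junb (r = 0.95) and Fosb with Arc (r = 0.95). Dusp1 and Btg2 went with each other (r = 0.78) but less with Egr1, Npas4 and Nr4a1, with r between -0.027 and 0.47 over the 6 pairs. AstroTRAP_17 shows the contrast: it had the highest Egr1 and Nr4a1 of the 7 libraries and the lowest Dusp1 and Btg2.

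**Figure D4:**
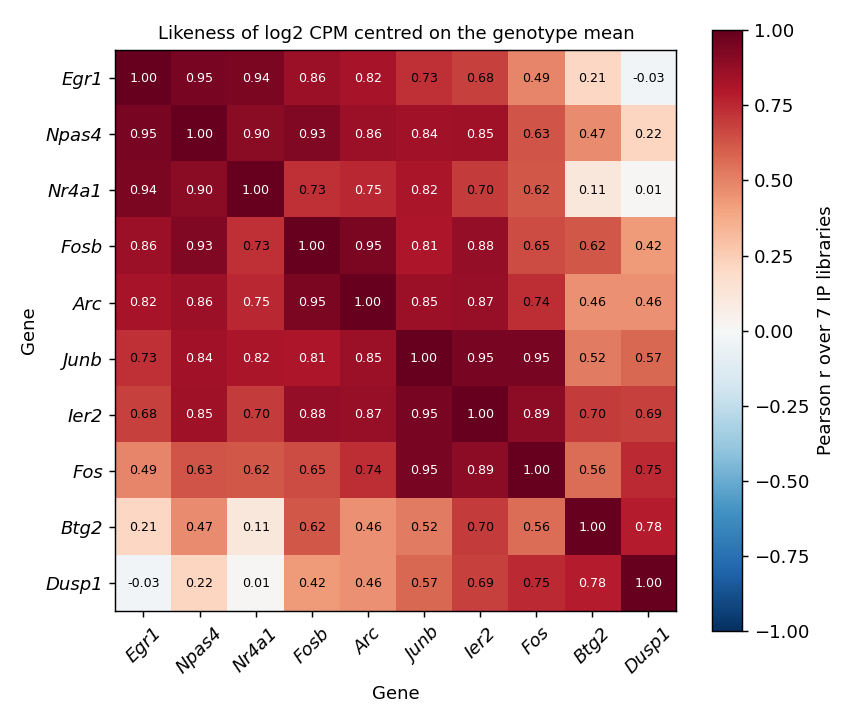
Pearson r between the log2 CPM of each pair of immediate early genes after centring on the genotype mean, over 7 IP libraries (colour scale from -1 to 1, value in each cell). Egr1, Npas4 and Nr4a1 form a close group, and Dusp1 and Btg2 at the other end go with Fos and Ier2 but hardly with Egr1 or Nr4a1.

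Promoters are shown for Npas4 and Nr4a1 (r = 0.90 with each other) and for Dusp1 and Btg2, the pair that followed them least. RefSeq promoter entries on GRCm38.p6 were at hand for 7 of the 10 genes, and Arc, Egr1 and Ier2 had none. Each line gives the 250 bases before the annotated start, 5′ to 3′ on the gene's strand, with the core of the cAMP response element (CRE), TGACG or its reverse complement CGTCA, in capitals. The Npas4 window is chr19:4989972-4990221 and the Nr4a1 window chr15:101266596-101266845. Both lie inside the full span of the gene, before one of its starts. The Dusp1 window is chr17:26508473-26508722 and the Btg2 window chr1:134079156-134079405. Nr4a1 is on the plus strand and the others are on the minus strand.
Npas4: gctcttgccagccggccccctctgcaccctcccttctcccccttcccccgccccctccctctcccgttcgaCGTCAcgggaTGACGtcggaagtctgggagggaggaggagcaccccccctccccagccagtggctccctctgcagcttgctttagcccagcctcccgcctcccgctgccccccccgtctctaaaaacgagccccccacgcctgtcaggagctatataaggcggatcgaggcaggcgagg
Nr4a1: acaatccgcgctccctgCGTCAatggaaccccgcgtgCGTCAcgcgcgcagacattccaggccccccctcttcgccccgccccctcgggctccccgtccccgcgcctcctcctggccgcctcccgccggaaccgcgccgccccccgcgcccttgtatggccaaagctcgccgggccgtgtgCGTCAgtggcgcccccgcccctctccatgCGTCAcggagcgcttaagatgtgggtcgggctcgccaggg
Dusp1: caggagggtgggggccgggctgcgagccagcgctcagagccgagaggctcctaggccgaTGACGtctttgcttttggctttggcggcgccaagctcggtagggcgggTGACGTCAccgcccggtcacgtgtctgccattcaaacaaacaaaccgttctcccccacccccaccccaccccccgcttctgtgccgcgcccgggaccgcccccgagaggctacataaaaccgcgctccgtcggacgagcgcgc
Btg2: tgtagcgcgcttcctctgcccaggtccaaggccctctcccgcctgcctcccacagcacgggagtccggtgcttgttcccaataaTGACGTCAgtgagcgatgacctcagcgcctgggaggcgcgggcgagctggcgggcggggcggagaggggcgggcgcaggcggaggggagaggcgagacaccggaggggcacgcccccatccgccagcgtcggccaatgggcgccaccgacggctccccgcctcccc
The full palindrome TGACGTCA was found in 2 of the 7 promoters, those of Dusp1, where it begins 143 bases before the start, and Btg2, where it begins 166 bases before it. It was present in 1.62% of the 27025 RefSeq promoters of the same length. The core alone was found in 7 of the 7, among them Fos at 129 and 66 bases and Junb at 106 bases before the start, and in 17.9% of all promoters. Every full palindrome also counts as a core. Neither the AP-1 motif TGACTCA (4.43% of all promoters), the EGR motif GCGTGGGCG (0.54%) nor the CArG box, the motif of SRF (1.4%), was found in these 7 windows on either strand. A match describes letters and not binding, and the absence of one says only that the letters are not in this window.

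Neuronal mRNA also differed between the libraries. The study set aside IP samples with high neuronal genes, so the libraries used here were already filtered on neuronal mRNA. The summed CPM of 10 neuron markers, all detected in every library, was 3192, 3406 and 4251 in Ctrl and 3376, 4238, 2741 and 4329 in cKO. AstroTRAP_17, AstroTRAP_19 and AstroTRAP_5 were therefore the highest, and the ranges of the genotypes overlapped, at 3192 to 4251 and 2741 to 4329 CPM. Snap25 makes up much of that sum. Rbfox3, Syt1, Snap25, Gad2, Stmn2, Nrgn and Camk2a each had their 3 highest values in these same libraries. The other markers did not run in that order. Gad1, the GABA-synthesizing enzyme, was lowest there (23.7, 29.0 and 34.3 CPM in AstroTRAP_5, AstroTRAP_19 and AstroTRAP_17). Slc17a7, a vesicular glutamate transporter, was highest in AstroTRAP_5 (23.4 CPM) and lowest in AstroTRAP_17 (8.37 CPM). Tubb3 was highest in AstroTRAP_1. The libraries with the highest sums held the 3 highest values of Egr1 (86.5 to 139 CPM), of Arc (124 to 188 CPM) and of Fosb (3.32 to 7.36 CPM). Fos did not follow that order, since AstroTRAP_19 and AstroTRAP_17 had 43.6 and 64.3 CPM while AstroTRAP_15 and AstroTRAP_1 had 101.1 and 100.4 CPM. Nor did Dusp1, lowest in AstroTRAP_17. The part of neuronal mRNA in the levels of Egr1, Arc and Fosb was not tested. With these 3 libraries left out, which leaves 2 per genotype, 0 of the 10 genes passed and the median log2 fold change was -0.16, with 3 of the 10 above 0. These libraries include both cKO libraries with the highest summed level of the 10 genes, so leaving them out lowers the cKO values by construction. Other markers moved as well: the 7 oligodendrocyte markers summed to 741 to 833 CPM in Ctrl and 460 to 867 CPM in cKO, the 7 microglia markers to 50.7 to 62.3 and 41.2 to 81.1 CPM, and the 8 astrocyte markers to 28775 to 44181 and 28517 to 56013 CPM. The astrocyte sum was lowest in AstroTRAP_17, AstroTRAP_19 and AstroTRAP_5 (28517, 28775 and 29656.5 CPM), the libraries with the highest neuron marker sums. In the other libraries it was 37038.5 CPM or more. Aldoc, at 15321 to 37440 CPM, makes up much of the astrocyte sum. Oligodendrocyte and microglia markers were both highest in AstroTRAP_5 and lowest in AstroTRAP_9, as were Fos, Junb and Arc. The 4 endothelium markers of 6 that were tested summed to 9.83 to 20.3 CPM in Ctrl and 12.4 to 30.2 CPM in cKO, also highest in AstroTRAP_5. The part of these markers in the levels of the 10 genes was not tested.

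**Figure D5:**
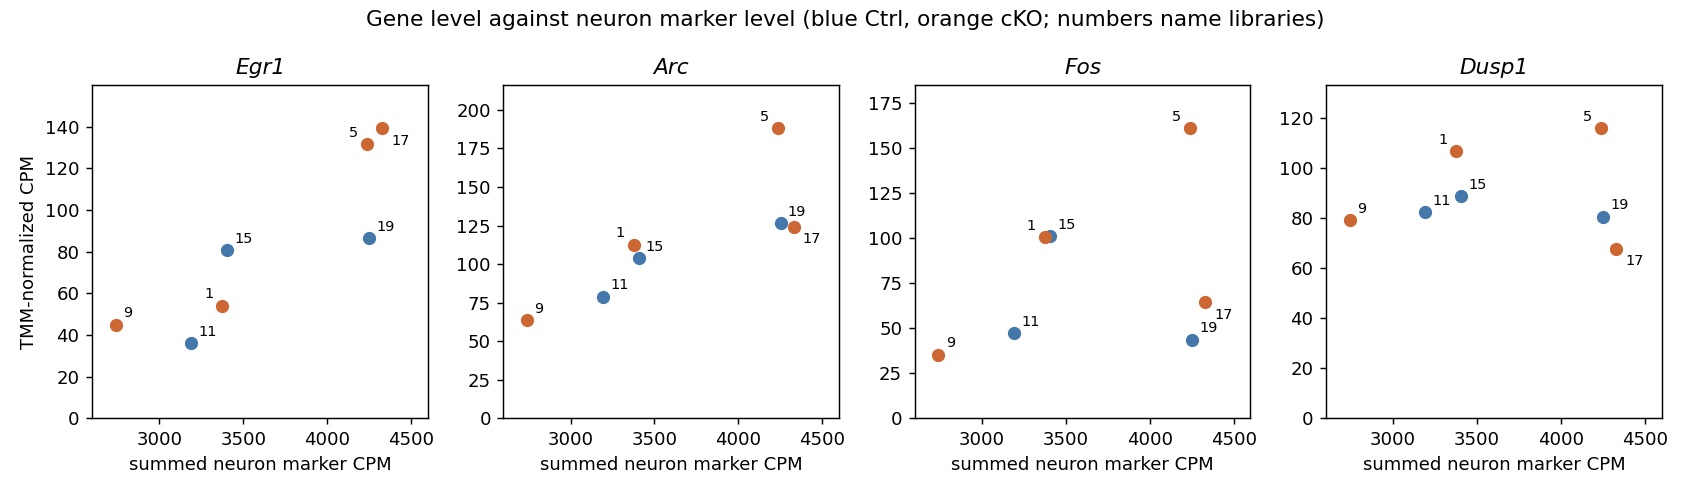
CPM of Egr1, Arc, Fos and Dusp1 (y axes, from 0) against the summed CPM of 10 neuron markers (x axis) in the 7 IP libraries, Ctrl blue and cKO orange, numbered by library. Egr1 and Arc are highest in the 3 libraries with the most neuron marker mRNA, and Fos and Dusp1 are not.

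Other activity-regulated genes were taken from a list of 44, of which 42 were tested and 0 passed an adjusted p of 0.05. Their log2 fold changes lay between -0.99 for Egr3 and 1.70 for Klf4, with 21 above and 21 below 0 and a median of 0.0062. Of the 42, 1 had an unadjusted p under 0.05, where 2.58% of all tested genes did. It was Gadd45g, a stress-response gene named after its values were seen, with a log2 fold change of -0.45 (standard error 0.20, unadjusted p = 0.0492, and an adjusted p of 0.9996 in the same edgeR fit). Egr4 ran most like the 10 genes among those named from this list (r = 0.97 with their mean standardised level), at 10.5, 17.8 and 18.3 CPM in Ctrl and 16.1, 23.0, 10.3 and 15.5 CPM in cKO. Nr4a3, a relative of Nr4a1, had 2.82, 3.45 and 3.03 CPM in Ctrl and 2.96, 10.2, 3.03 and 8.74 CPM in cKO. It was high in AstroTRAP_5 and AstroTRAP_17 and near the Ctrl level in the other cKO libraries (log2 fold change 1.01, standard error 0.52). Egr2, at 1.84 to 15.4 CPM, also peaked in AstroTRAP_17. Of the 42 genes, 13 had an r above 0.5 with that mean and 6 one below -0.5. The share of all tested genes past these limits was not counted, and the quartiles of r over the genes outside the 10 were -0.40 and 0.38.

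Of the factors and kinases that switch on immediate early genes, all 22 on the list were tested and 0 passed, with log2 fold changes from -0.29 to 0.39 and a median of 0.027. Their median SD within genotype was 0.26, beside 0.33 over all tested genes and 0.72 for the 10 genes, and 8 of the 22 lay above the median of all genes. The most variable of them, Elk4, a partner of SRF named after its values were seen, had an SD of 0.85 and ran from 1.73 CPM in AstroTRAP_1 to 8.75 CPM in AstroTRAP_5. Srf had 2.83 to 4.49 CPM over the 7 libraries, Creb1 17.8 to 25.1 CPM (log2 fold change -0.28, standard error 0.17), and the kinase Mapk3 43.3 to 61.9 CPM. Among heat shock genes, which are induced by tissue stress, 7 of 8 were tested and 0 passed, with log2 fold changes from -0.49 to 0.20.

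The genes most like the mean standardised level of the 10 over the 7 libraries were Prickle2 and Pigz (r = 0.98 each), Tcirg1 (r = 0.98), Rnft2 (r = 0.98) and Tjp1 (r = 0.97). Prickle2, a planar cell polarity protein, ran from 39.1 CPM in AstroTRAP_11 to 60.8 CPM in AstroTRAP_5. Tjp1, which encodes the tight junction protein ZO-1, ran from 34.1 CPM in AstroTRAP_9 to 56.0 CPM. Among the tested genes outside the 10, 87 had an r above 0.9, and the quartiles were -0.40 and 0.38. Among all 13296 tested genes, 134 had an r below -0.9, down to -0.99 for Slc25a38 (named after its values were seen).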

How the data were processed

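Cortical TRAP libraries were made with Smart-seq2. The authors trimmed reads with cutadapt 1.15 and deposited kallisto 0.44.0 estimated counts, summed per gene over GENCODE vM17 transcripts (GRCm38). The single-end reads are counted without UMIs or strand. Of 18 columns, 7 were used, those of the IP libraries whose numbers the study's material ties to a genotype. The remaining 11 columns were not used. According to the methods, IP samples with high neuronal genes were set aside by the study, along with a sample of low counts. The columns carry no replicate numbers. The labels give separate animals.

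Estimated counts were rounded, filtered (filterByExpr) and TMM-scaled, and cKO was compared with Ctrl by edgeR 4.0.16 (R 4.3.3) quasi-likelihood tests over all 13296 tested genes, with Benjamini-Hochberg adjustment at 0.05. Gene levels were also compared by exact two-sided permutation tests. Spread and correlations used log2 CPM with a prior count of 2, centred on the genotype mean, and 95% intervals come from the fit. Libraries held 12570309 to 40734343 estimated counts, and 3 counts equal 0.0762 to 0.222 CPM. The statistics were tested on simulated data in which 200 of 13296 genes were changed. The quasi-likelihood test made 8 false calls there, edgeR's exact test 31 and DESeq2 55. Genes were drawn independently, so the simulation does not cover genes that vary together.

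The 10 genes, the lists and the likeness rule (the 5 genes with the highest r) were chosen with earlier results of these data known, and the promoter motifs and printed promoters after values were seen. Named genes were the 10, a preset subset of the 2 pathway lists, and the 5 most alike. Alternatives were edgeR's exact test (the test in the study's methods), DESeq2 1.42.0, other scalings, filters and prior counts, and fits leaving out libraries.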

Additional observations from a re-analysis of the deposited data

How the results depend on the processing

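Under all 16 alternatives, 0 of the 10 genes passed the threshold. The count over all genes was 6, and it was 18 with edgeR's exact test, 21 with DESeq2, 22 without AstroTRAP_5 and AstroTRAP_17, and 29 without AstroTRAP_5, AstroTRAP_17 and AstroTRAP_19, with 4 to 6 when 1 library was left out. The fits without several libraries were chosen after seeing the data: the first leaves out the cKO libraries, and the second the libraries of either genotype, with the highest summed neuron marker level. AstroTRAP_5 and AstroTRAP_17 are also the libraries with the highest summed level of the 10 genes. The cause of the higher counts was not tested. RLE, upper-quartile or library-size scaling and other filters changed no direction of the 10 genes. Other prior counts were run for the spread only. The number of the 10 genes above 0, 9 in the reported fit, was 5 to 9 when 1 library was left out (5 without AstroTRAP_5) and 3 in each of the fits without several libraries. Their median log2 fold change ran from 0.0054 to 0.61 over single omissions, and was -0.20 without AstroTRAP_5 and AstroTRAP_17 and -0.16 without all 3. Leaving out 1 library moved Arc between -0.044 and 0.45, Btg2 between -0.0010 and 0.72, Junb between -0.16 and 0.46 (-0.072 without AstroTRAP_11) and Npas4 between -0.0034 and 0.74. It moved Fos between 0.060 and 0.99, Fosb between 0.11 and 1.00, Egr1 between 0.14 and 0.67, Nr4a1 between 0.36 and 1.11, Dusp1 between 0.012 and 0.26 and Ier2 between -0.34 and -0.12. Without AstroTRAP_5 and AstroTRAP_17 the log2 fold change was -0.23 for Arc, -0.46 for Egr1, -0.13 for Fosb, -0.29 for Junb, -0.48 for Npas4 and -0.17 for Nr4a1. Without all 3 it was -0.057 for Arc, -0.24 for Egr1, -0.13 for Fos, -0.37 for Junb, -0.29 for Npas4 and -0.19 for Nr4a1. The median spread of 0.72 lay between 0.53 and 0.77. Fosb and Npas4 rest on few counts, so their values are the least precise. No paired analysis was possible because the columns carry no replicate numbers.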
